A study of Homo sapiens with 4 samples.

Results

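The data describe 8 genes that carry copper, organic cations and platinum drugs across membranes or hand copper on inside the cell. All 8 were found by gene name among the 58735 genes of the deposited RNA-seq table. They are the copper importer SLC31A1 (CTR1), its relative SLC31A2 (CTR2), the organic cation transporters SLC22A2 (OCT2) and SLC22A3 (OCT3), the copper chaperone ATOX1, the copper-exporting ATPases ATP7A and ATP7B, and the cation exporter SLC47A1 (MATE1). In cells, copper enters through SLC31A1, is bound in the cytosol by chaperones such as ATOX1, and is pumped by ATP7A and ATP7B into the secretory pathway or out of the cell. Platinum drugs can bind the same metal sites, and oxaliplatin can also enter as a cation through members of the SLC22 family, which is why these genes are often read together in platinum-treated tumour cells.

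The lines HCT116 and LOVO, both established from human colorectal cancers, were sequenced in 2 growth forms, adherent and spheroids, which gave 4 RNA-seq libraries. All samples carry the label WT. The adherent cells were untreated and grew in RPMI-1640 with serum. The spheroids were formed for about 2 weeks in low-attachment dishes, in serum-free medium with growth factors and with oxaliplatin; the labels give 1 mg/ml as treatment and name no drug, while the text of the study names oxaliplatin with a dose in μg/ml. Growth form, medium and drug thus changed together and cannot be told apart, and with 1 library per group no value below carries a replicate error and no test was possible within a line.

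The deposited values are FPKM, the fragments on a gene divided by its length in kilobases and scaled to 1000000 fragments of the library. Reads on genes ranged from 15483569 to 20429147 per library, and the reads behind each FPKM could be recovered from the table. Genes that had at most 3 reads in each of the libraries compared were treated as having too few reads, and intervals are 95% exact (Clopper-Pearson, or Poisson for a single level) and cover counting error only. The libraries labelled LOVO went against their label on epithelial markers. Of 10 intestinal epithelial markers, 5 were at 3 reads or fewer in each of these libraries, including CDX1, CDX2 and VIL1 at 0 reads in both. The summed FPKM of the 10 markers was 327 in the adherent and 187 in the spheroid library labelled LOVO, against 1754 and 1288 in HCT116. EPCAM was at 0.930 and 1.499 FPKM there, against 85.6 and 79.3 in HCT116, although KRT8 and KRT18 were present at 81.6 FPKM or more in all 4 libraries. Of 6 fibroblast markers, 4 reached at least 1 FPKM in the adherent and 5 in the spheroid library labelled LOVO, against 1 in each HCT116 library, and the summed FPKM was 54.0 and 72.8 against 5.60 and 16.1. Their part in the results below was not tested, and these libraries are called "labelled LOVO" throughout.

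ATOX1 and ATP7A share a short copper-binding site with a pair of cysteine codons, which is shown because copper is passed through it between the chaperone and the pump. The coding sequence of ATOX1 (principal transcript, GENCODE 29 on GRCh38, minus strand of chromosome 5, 204 bases before the stop codon) holds 1 match, in capitals, to an in-frame pattern of an ATG codon followed by an ACN codon and a TGN codon, any 2 codons and another TGN codon, searched on the coding strand only. The coding sequence of ATP7A holds 5 matches. Its first and its last match, with the 6 bases on either side, are given with their coordinates.
ATOX1 coding sequence: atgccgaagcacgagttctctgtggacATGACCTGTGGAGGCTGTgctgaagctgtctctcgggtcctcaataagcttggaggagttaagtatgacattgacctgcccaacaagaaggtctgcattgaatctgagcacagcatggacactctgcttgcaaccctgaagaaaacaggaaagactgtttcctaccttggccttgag
ATP7A site 1 (chrX:77971684-77971713, plus strand): gagggtATGACTTGCAATTCCTGTgtttgg
ATP7A site 5 (chrX:78009105-78009134, plus strand): aggggaATGACGTGTGCCTCCTGCgtacat
Over the 18 bases in capitals, the ATP7A sites matched the ATOX1 site at 11 to 12 bases. The pattern fixes the ATG codon and every letter but the last of the ACN and TGN codons. Most of this identity thus comes from the search itself, and no likeness beyond the pattern is read from it. Copper sites with other letters are not found by the pattern.

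Of the 8 genes, 6 reached a mean FPKM of 1 over the libraries and so were among the 14429 genes compared. SLC31A2 and SLC22A2 were below that limit, and SLC22A3 and SLC47A1 passed it only through the libraries labelled LOVO. Too few reads for any comparison of spheroids with adherent cells were found in HCT116 for SLC22A2, with 1 read in each library, and for SLC22A3, with 0 reads in each. SLC31A2 (3 to 18 reads per library) and, in HCT116, SLC47A1 (1 and 6 reads) could be compared only with wide intervals.

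**Figure D1:**
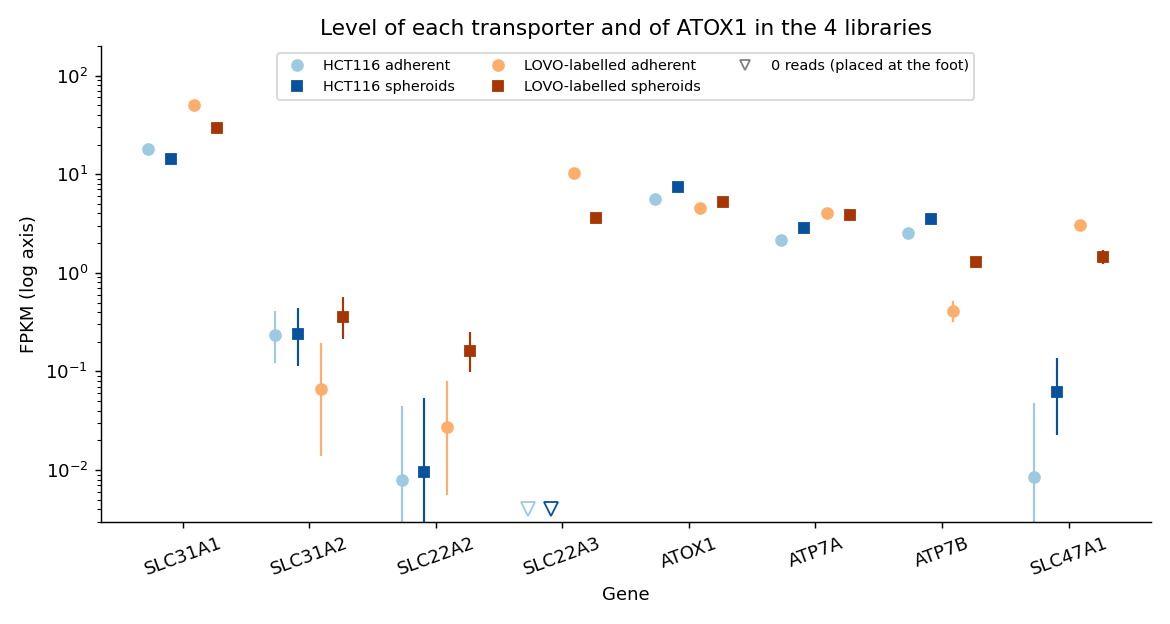
FPKM of the 8 genes on a log axis in the 4 libraries, with circles for adherent cells, squares for spheroids and bars for the 95% Poisson interval of the reads. SLC31A1 was the highest in each library, and SLC22A3 (0 reads in both HCT116 libraries, open triangles at the foot) and SLC47A1 were measured well only in the libraries labelled LOVO.

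SLC31A1 lies on the plus strand at chr9:113221562-113264492 of GRCh38 and encodes the high-affinity copper importer of the plasma membrane. It had the highest FPKM of the 8 genes in every library. In HCT116 the FPKM was 18.1 for the adherent library and 14.4 for the spheroids (1893 and 1238 reads). The libraries labelled LOVO held 49.9 when adherent and 29.4 as spheroids (4592 and 3037 reads). The spheroids were thus lower than the adherent cells in both lines, and both libraries labelled LOVO were above both HCT116 libraries. The FPKM of the spheroids was 0.793 times that of adherent cells in HCT116 (interval 0.738 to 0.853) and 0.589 times in the libraries labelled LOVO (interval 0.563 to 0.617). On the log2(FPKM + 1) scale, which understates changes of low genes, the differences were -0.31 and -0.74, at percentiles 24.2 and 15 of all genes compared. In bulk RNA, fewer cells of a type and less RNA per cell cannot be told apart, which holds for every value here. SLC31A1 transcripts share stretches of 50 bases or more with 145 other genes, the longest 73 bases, so a few of its reads may be shared.

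SLC31A2, a low-affinity relative of SLC31A1 found mostly on internal membranes, was close to the detection limit. HCT116 had an FPKM of 0.235 when adherent and 0.238 as spheroids (12 and 10 reads). The values for the libraries labelled LOVO were 0.0668 and 0.357 (3 and 18 reads). On the log2 scale, the ratio of the spheroids was 0.02 in HCT116 (interval -1.354 to 1.352), so no difference was detectable at this depth, and 2.42 in the libraries labelled LOVO (interval 0.64 to 4.82). Of its 2504 exonic bases, 1579 overlap FKBP15 on the opposite strand, and since the strandedness of the counting is not given in the sources used here, its reads cannot be told apart from those of FKBP15.

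The organic cation transporters were detected mainly in the libraries labelled LOVO. SLC22A2, a carrier best known from the kidney that can take up oxaliplatin, had 1 read in each HCT116 library, and 3 and 20 reads in the adherent and spheroid libraries labelled LOVO, at 0.0271 and 0.161 FPKM. Only the last of these libraries stood above the floor of 3 reads. The ratio of the libraries labelled LOVO was 5.94, with an interval from 1.76 to 31.2, at levels that remained far under 1 FPKM.

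SLC22A3 (chr6:160348268-160452581, plus strand), a broadly expressed carrier of the same family, had 0 reads in both HCT116 libraries. With 3 reads as the limit that a count of 0 allows, a one-sided limit, its FPKM there was at most 0.0440 in adherent cells and 0.0533 in spheroids, and the upper ends of the Poisson intervals were 0.0541 and 0.0656. Its FPKM in the libraries labelled LOVO was 10.4 when adherent and 3.61 as spheroids (622 and 243 reads). It was the second highest of the 8 genes in adherent cells labelled LOVO by the gene lengths of the table, and the third, below ATOX1, by the lengths of the principal transcripts. The spheroids had 0.348 times the FPKM of the adherent cells (interval 0.299 to 0.404), a log2 difference of -1.30 on the log2(FPKM + 1) scale, at percentile 3.97 of all genes compared. SLC22A3 has a single annotated transcript, and none of its exonic bases is shared with another gene.

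ATOX1 (chr5:151742316-151772532, minus strand), the chaperone that passes copper to the pumps, had an FPKM in HCT116 of 5.59 when adherent and 7.44 as spheroids (597 and 655 reads). It was 4.59 and 5.23 in the libraries labelled LOVO (431 and 551 reads). Both spheroid libraries were above their adherent library, and all 4 values lay within a narrow range. The ratio was 1.33 in HCT116 (interval 1.19 to 1.49) and 1.14 in the libraries labelled LOVO, where the interval (1.003 to 1.30) reached almost to 1. There the log2 difference depended on the scaling, at 0.16 as deposited, 0.37 with TPM and 0.27 with TMM-style scaling. Of the 5239 exonic bases of ATOX1, 130 overlap G3BP1 on the opposite strand.

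The level of ATOX1 relative to the other genes depended on the gene length. The table divides its reads by 5239 bases, the union of all its annotated exons, whereas its principal coding transcript has 749 bases, 14.3% of that length. With the principal length, and all reads assigned to that transcript, its level per kilobase would be 39.1 and 52.1 in adherent and spheroid HCT116 cells and 32.1 and 36.6 in the libraries labelled LOVO. It would then stand above SLC31A1 in 3 libraries and below it in adherent cells labelled LOVO, where SLC31A1 would be at 54.0. The ratios between libraries do not involve the length and stay as given.

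ATP7A (chrX:77910656-78050395, plus strand), the pump expressed in most tissues outside the liver, had an FPKM in HCT116 of 2.14 when adherent and 2.86 as spheroids (476 and 524 reads). It was 4.04 when adherent and 3.83 as spheroids in the libraries labelled LOVO (791 and 841 reads). It was higher in the spheroids of HCT116 only, with a ratio of 1.34 (interval 1.18 to 1.52), while the ratio of 0.948 in the libraries labelled LOVO had an interval that included 1 (0.859 to 1.05). The small difference there changed sign with the scaling, from -0.06 to 0.12 after rescaling to TPM and 0.05 with TMM-style scaling. Of the exonic bases of ATP7A, 289 also belong to PGK1 or the pseudogene AL356235.1.

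ATP7B (chr13:51930436-52012125, minus strand), the related pump that loads copper onto ceruloplasmin in the liver and whose loss causes Wilson disease, had an FPKM in HCT116 of 2.56 when adherent and 3.52 as spheroids (505 and 572 reads). It was 0.409 and 1.27 in the libraries labelled LOVO (71 and 248 reads). The spheroids were above the adherent cells within each line, and both HCT116 libraries lay above both libraries labelled LOVO. The ratio was 1.37 in HCT116 (interval 1.22 to 1.55) and 3.11 in the libraries labelled LOVO (interval 2.38 to 4.11). On the log2(FPKM + 1) scale the latter was 0.69, under the fold threshold of 1, whereas with pseudocounts of 0.1 and 0.01 it was 1.43 and 1.61 and with TPM 1.31.

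SLC47A1 (chr17:19495385-19579034, plus strand), which extrudes organic cations in exchange for protons, had 1 and 6 reads in adherent and spheroid HCT116 cells, at 0.00858 and 0.0624 FPKM. Its FPKM in the libraries labelled LOVO was 3.08 when adherent and 1.45 as spheroids (316 and 167 reads). The spheroids labelled LOVO had 0.471 times the FPKM of the adherent cells (interval 0.388 to 0.570). In HCT116 the interval of the log2 ratio ran from -0.18 to 8.39, so no difference was detectable at this depth. Of its 5719 exonic bases, 203 overlap an antisense gene.

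The order of the levels per length was SLC31A1, ATOX1, ATP7B, ATP7A and SLC31A2 in both HCT116 libraries. Each neighbouring pair in that order differed beyond its counting interval, the closest being ATP7B over ATP7A, by 0.26 (interval 0.08 to 0.44) in adherent cells and 0.30 (interval 0.13 to 0.48) in spheroids on the log2 scale. These intervals do not cover the choice of gene length. With the principal transcript lengths ATOX1 would come first in HCT116, at 39.1 and 52.1 against 19.6 and 15.5 for SLC31A1. In adherent cells labelled LOVO the order was SLC31A1, SLC22A3, ATOX1, ATP7A, SLC47A1 and ATP7B. By the principal transcript lengths it would be SLC31A1, ATOX1, SLC22A3, SLC47A1, ATP7A and ATP7B in that library. In spheroids labelled LOVO the order by the lengths of the deposited values was SLC31A1, ATOX1, ATP7A, SLC22A3, SLC47A1, ATP7B, SLC31A2 and SLC22A2, and the counting intervals did not separate ATP7A from SLC22A3 or SLC47A1 from ATP7B. There too ATOX1 would come first with the principal lengths, at 36.6 against 31.8 for SLC31A1.

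**Figure D2:**
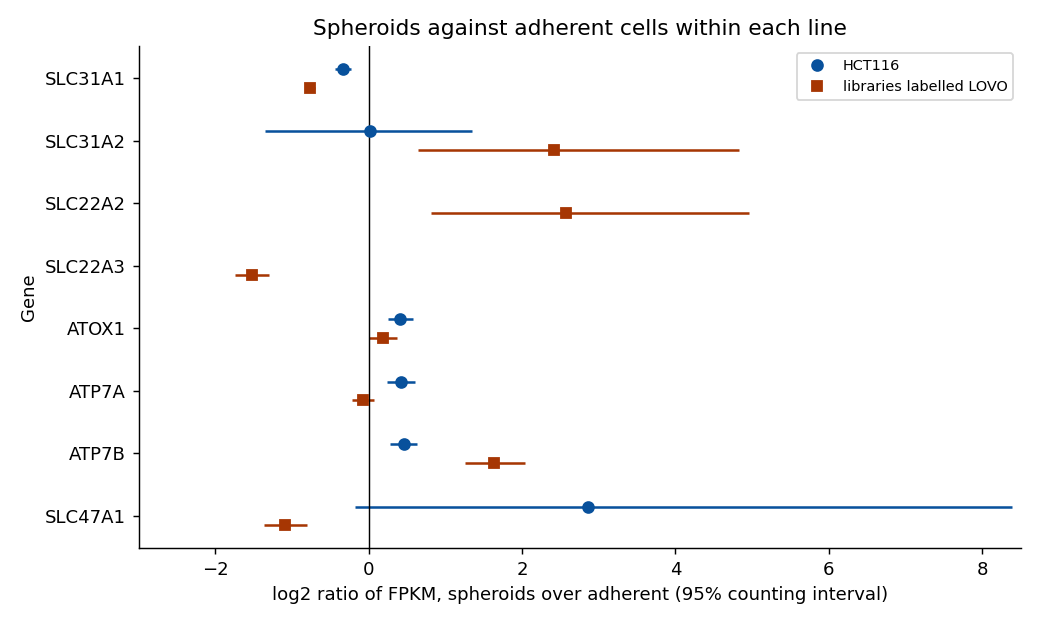
log2 ratio of the FPKM of spheroids to that of adherent cells for each gene, with its 95% counting interval, in HCT116 (circles) and in the libraries labelled LOVO (squares). SLC31A1 lay below 0 and ATOX1 and ATP7B above 0 in both, and SLC22A2 and SLC22A3 have no HCT116 point because of too few reads.

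The 8 genes were also set against all genes compared between spheroids and adherent cells. In HCT116, 0 of the 5 members that were among the genes compared and had enough reads passed a log2 difference of 1 on the log2(FPKM + 1) scale, a limit that 5.52% of all genes compared passed in either direction (2.19% higher and 3.33% lower). Among the 6 compared in the libraries labelled LOVO, 1 (SLC22A3) was past it and lower, against 7.85% of all genes lower and 8.57% higher, or 16.4% in either direction. The counts in both lines were near these shares and are not a result about the 8 genes. There the split of all genes past the limit was 1236 higher and 1133 lower as deposited, 2267 and 972 after rescaling to TPM, and 1422 and 836 with TMM-style scaling. At the limit of 2 named in the methods of the study, 0 members passed in either line, against 0.707% of all genes in HCT116 and 2.75% in the libraries labelled LOVO. The median log2 difference of the members compared was 0.30 in HCT116 and -0.40 in the libraries labelled LOVO, against -0.03 and -0.06 for all genes compared. The first was 0.0214 at a mean FPKM of at least 5, and the second turned to 0.0472 with no filter. SLC22A3 and SLC47A1 were compared only through the libraries labelled LOVO, where both were lower in spheroids. The count and the median of the members in those libraries are thus partly set by the filter, and nothing is read from them.

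By counting intervals, 3 of the 6 members with enough reads in HCT116, whatever their mean FPKM, were above 0 (ATOX1, ATP7A and ATP7B) and 1 was below (SLC31A1), where 27.9% and 36% of all genes compared were. For the libraries labelled LOVO, 4 of 8 were above 0 (SLC31A2, SLC22A2, ATOX1 and ATP7B) and 3 below (SLC31A1, SLC22A3 and SLC47A1), against 33.1% and 43.3% of all genes. Such intervals separate libraries at this depth for most genes, and they do not measure the spread between cultures.

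The importer and the exporters were also set against each other within a library, which removes any scaling between libraries. These ratios were chosen after the values had been seen. The FPKM of SLC31A1 was 8.47 times that of ATP7A in adherent HCT116 cells and 5.03 times in spheroids. The libraries labelled LOVO gave 12.4 and 7.69 times. The ratio in spheroids was therefore 0.594 times (interval 0.513 to 0.687) and 0.622 times (interval 0.558 to 0.694) that in adherent cells. Against ATP7B, the ratio was 7.07 and 4.08 for HCT116, and 122 and 23.1 for the libraries labelled LOVO, adherent first. Against ATOX1, it was 3.24 and 1.93, and 10.9 and 5.63. The importer was thus lower relative to the chaperone and to each pump in the spheroids of both lines. Between the pumps, the ratio of ATP7B to ATP7A was 1.198 in adherent HCT116 cells and 1.23 in spheroids, a change whose interval included 1 (0.863 to 1.23), and went from 0.101 to 0.333 in the libraries labelled LOVO.

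A limma model of growth form was fitted to all 4 libraries with the cell line as covariate. The lines took the place of replicates, which left 1 residual degree of freedom. In it, 0 of 14429 genes (0%) passed a Benjamini-Hochberg adjusted p of 0.05 and 1545 genes (10.7%) had an unadjusted p under 0.05. The limma log2 difference of SLC31A1 was -0.53 (standard error 0.26, adjusted p = 0.483), and it was lower in the spheroids of 2 of 2 lines. That of ATP7B was 0.52 (standard error 0.28, limma adjusted p = 0.503), higher in 2 of 2 lines. For ATOX1 it was 0.26 (standard error 0.25, limma adjusted p = 0.668), higher in 2 of 2 lines, and the other members compared had limma adjusted p from 0.532 to 0.866. No member passed the test.

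**Figure D3:**
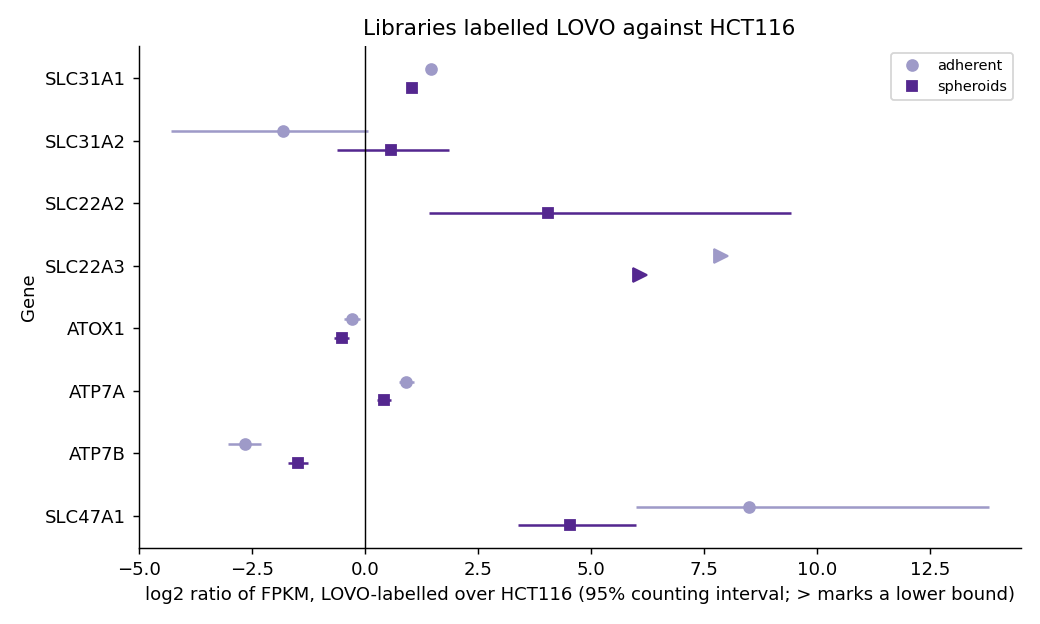
log2 ratio of the FPKM of the libraries labelled LOVO to that of HCT116 for each gene, in adherent cells (circles) and spheroids (squares), with 95% counting intervals. Arrowheads mark the lower bound for SLC22A3, which had 0 reads in HCT116. SLC31A1, ATP7A, SLC22A3 and SLC47A1 lay above 0 and ATOX1 and ATP7B below 0 in both growth forms.

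The lines differed most in SLC22A3 and SLC47A1. SLC22A3 was at least 236-fold higher in adherent cells labelled LOVO than in adherent HCT116 cells and at least 67.6-fold higher in the spheroids, with the HCT116 libraries set at 3 reads each, and the lower ends of the counting intervals of these ratios were 191 and 54.6. SLC47A1 was 359 times (interval 64.0 to 14230) and 23.2 times (interval 10.5 to 64.2) higher in adherent cells and in spheroids labelled LOVO. SLC31A1 was 2.76 times (interval 2.61 to 2.91) and 2.05 times (interval 1.92 to 2.19) higher there. In the other direction, ATP7B in the libraries labelled LOVO was 0.160 times (interval 0.123 to 0.205) and 0.362 times (interval 0.311 to 0.421) its level in HCT116. ATP7A was 1.89 and 1.34 times and ATOX1 0.821 and 0.702 times the HCT116 level.

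SLC22A3 and SLC47A1 were among the genes compared only through the libraries labelled LOVO, where they are high, so a count that holds them is set by the filter and nothing is read from it. Of the other 4 genes compared, 1 (SLC31A1) was past a log2 difference of 1 and higher in adherent cells labelled LOVO and 1 (ATP7B) was lower, where 17.4% and 16.4% of all genes compared were. At a mean FPKM of at least 5, SLC31A1 was higher and ATP7B was no longer compared. In spheroids 0 of the 4 were higher and 0 lower, against 17.7% and 15% of all genes, with SLC31A1 at 0.99 and ATP7B at -0.99, just inside the limit. By counting intervals, 4 of 7 members with enough reads, whatever their mean FPKM, were above and 2 below 0 in adherent cells, and 5 of 8 above and 2 below in spheroids. The shares of all genes that passed the filter were 45.4% and 38.6% in adherent cells and 43.2% and 39.8% in spheroids. These counts hold SLC22A3 and SLC47A1 and are over an unlike set of genes, so nothing is read from them either. The libraries labelled LOVO are also the ones with low EPCAM and with CDX2 at 0 reads, although KRT8 and KRT18 were present. They held DCN (10.4 and 9.97 FPKM, against 0 reads in HCT116) and LUM (31.4 and 50.4 FPKM). COL3A1 and PDGFRB were also above HCT116 there. COL1A2 had at most 1 read in every library, and COL1A1 was at 9.89 and 6.10 FPKM, against 5.51 and 15.5 in HCT116. The part of these markers in the values of SLC22A3 and SLC47A1 was not tested.

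The genes whose pattern over the 4 libraries was most like that of each member were found by the root mean square distance of centred log2(FPKM + 1) values, among genes with a similar range. For SLC31A1 they were ENDOG and UNG, at distances of 0.02 and 0.03, with 63 of 5572 candidates within 0.1. For ATP7A they were MTG1 and SLC25A46, for ATP7B MAST3 and KLF7, for ATOX1 AC131212.3 and HEMK1, and for SLC47A1 HACD1 and BDKRB2, each at a distance of 0.02 to 0.03. For SLC22A3, PRSS23 and NEFH were at 0.06 and 0.09, and 3 of 1800 candidates lay within 0.1. With 4 libraries many genes share a pattern, and the distances are a description only.

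Other genes that handle copper and platinum were read from 7 lists with 72 genes, of which 55 passed the filter. In HCT116, 0 of them were past a log2 difference of 1 and higher and 4 were lower, and in the libraries labelled LOVO 8 were higher and 4 lower, beside the shares of all genes given above. The filter left out HEPH (61 and 245 reads, log2 difference 1.10) and HEPHL1 (14 and 123 reads, 1.07), which were past 1 and higher in HCT116 spheroids. Beside the values from the libraries labelled LOVO, the summed FPKM of the markers moved from adherent cells to spheroids from 327 to 187 for the epithelial, from 54.0 to 72.8 for the fibroblast, from 1.13 to 7.84 for the endothelial (PECAM1 to 6.35) and from 0.148 to 1.962 for the blood cell list, and their part was not tested.

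The list of copper chaperones and of genes that deliver copper to cytochrome oxidase in mitochondria also holds SOD1, the superoxide dismutase that CCS serves. Its genes were lower in spheroids for 9 of 10 in HCT116 and 10 of 10 in the libraries labelled LOVO, with medians of -0.34 and -0.61. Of all genes compared, 53.4% and 53.5% were below 0. At a mean FPKM of at least 5 these shares were 61.5% and 63.0%. The counting interval was below 0 for 6 and 9 of the list genes, against 36% and 43.3% of all genes compared. CCS, the chaperone of superoxide dismutase, singled out after its values were seen, was the exception in HCT116 (12.6 and 18.3 FPKM). It was at 9.17 and 9.10 FPKM in the libraries labelled LOVO, and its sign turned with each other scaling, which left 9 of 10 lower. CMC2, a small protein of cytochrome oxidase assembly, was at 14.4 and 5.32 FPKM in adherent and spheroid cells labelled LOVO, a log2 difference of -1.28, and at 4.40 and 3.23 in HCT116.

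The secreted copper enzymes, which receive their copper through ATP7A or ATP7B in the secretory pathway, were higher in spheroids for 8 of 9 in each line, with medians of 0.21 and 0.50, where 45.8% and 45.5% of all genes compared were above 0. The counting interval was above 0 for 6 in HCT116 and 7 in the libraries labelled LOVO, against 27.9% and 33.1% of all genes compared. The exceptions, singled out after their values were seen, were LOXL1 in HCT116 (-0.04) and LOXL3 in the libraries labelled LOVO (-0.15). LOXL2, a lysyl oxidase that crosslinks collagen, was at 15.3 and 27.5 FPKM in HCT116 and at 24.8 and 126 FPKM in the libraries labelled LOVO. LOXL4, of the same family, was at 1.91 and 2.82 FPKM in HCT116 and at 0.321 and 4.41 in the libraries labelled LOVO. Ceruloplasmin (CP), the copper-carrying ferroxidase of plasma, passed the filter only through the libraries labelled LOVO, where it was at 2.49 and 13.2 FPKM. It had 5 and 7 reads in HCT116, too few to give it a direction (log2 ratio interval -1.11 to 2.76). Its place among the 8 higher genes thus has no weight in HCT116 and is set by the filter in the libraries labelled LOVO. LOX also passed the filter only through those libraries, at 5.26 and 17.2 FPKM, against 0.133 and 0.279 in HCT116 (15 and 26 reads). Its place in the counts of the libraries labelled LOVO is set by the filter too, and nothing is read from it there. The 9 genes are those that passed the filter out of 16.

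The list of trafficking and regulatory genes, most of them COMMD proteins that return ATP7A and ATP7B from endosomes, had medians of -0.10 in HCT116 and -0.48 in the libraries labelled LOVO. In the latter 16 of 17 were lower, against 53.5% of all genes compared, or 63.0% of those with a mean FPKM of at least 5. AP1S1 (0.12) was the exception, singled out after its values were seen. For 13 of the 17 the counting interval was below 0, against 43.3% of all genes compared. After rescaling to TPM 11 of 17 were lower, against 43.5% of all genes compared. None was past a log2 difference of 1 in either line.

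Among metal reductases and divalent metal carriers, SLC39A14, an importer of zinc, iron and manganese, was lower in the spheroids of both lines, at 48.3 and 22.2 FPKM in HCT116 and 44.0 and 18.5 in the libraries labelled LOVO. STEAP1, of a family of metal reductases, was at 10.4 and 4.72 FPKM in HCT116, and had 0 and 43 reads in adherent and spheroid cells labelled LOVO. The list's medians were 0.05 and 0.17 over 8 genes.

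Of 6 other organic cation carriers, 3 passed the filter. SLC22A5, the carnitine transporter, was at 8.97 FPKM in adherent cells and 2.67 in spheroids labelled LOVO and at 2.26 and 2.21 in HCT116. SLC29A4, a monoamine carrier, was higher in the spheroids of both lines, at 11.0 and 17.4 FPKM in HCT116 and 0.653 and 4.12 in the libraries labelled LOVO. The volume-regulated anion channel subunits (LRRC8 family), which can pass cisplatin, had medians of 0.10 and 0.14 over 4 genes and none past 1.

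Metallothioneins, small proteins that bind copper, zinc and platinum, had the medians farthest from 0 of the 7 lists, and 4 of its 8 genes passed the filter. MT2A was at 507 and 150.5 FPKM in adherent and spheroid HCT116 cells and at 85.0 and 325 in the libraries labelled LOVO. MT1E was lower in the spheroids of both, at 156.5 and 25.4 FPKM in HCT116 and 28.3 and 12.8 in the libraries labelled LOVO. MT1X was at 20.9 and 9.87 FPKM in HCT116 and 1.60 and 2.52 in the libraries labelled LOVO, and MT1F at 3.56 and 4.16 and at 1.00 and 3.92. The medians were -1.38 and 0.87. Metallothionein genes are close copies of each other, so the split of reads among them is uncertain.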

How the data were processed

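Total RNA from 4 cultures was sequenced after library preparation with a SMARTER mRNA-Seq kit. What the authors deposited is 1 table of FPKM. The aligner, the counting tool and its strand setting are not given in the sources used here; the submitters' processing notes name the mouse build GRCm38 (mm10), but all 58735 identifiers were found in human GENCODE 29 (GRCh38). In the deposited FPKM, 100% of values above 0 were whole reads within 0.01 read; the library totals used were 0.907 to 1.09 times the reads on genes.

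Differences were computed on log2(FPKM + 1) for genes whose mean FPKM reached 1. Counting intervals came from recovered reads. limma 3.58.1 (R 4.3.3, eBayes with trend, Benjamini-Hochberg) used cell line as covariate. edgeR, which the authors name, was not run on the recovered reads. Python 3.11.15 with numpy 2.4.6, scipy 1.17.1, pandas 2.3.3 and matplotlib 3.10.9 did the rest, and the scripts were tested on simulated data. Gene lists were named by up to 3 genes per list and line past a log2 difference of 1 with at least 20 reads, and like genes by the closest 2 within a range factor of 1.5. The members, lists and rules were chosen with earlier results of these data known. Alternatives were pseudocounts of 0.1 and 0.01, TPM, TMM-style scaling, centring, no filter, a mean FPKM of at least 5, protein-coding genes only, limma without the covariate or trend and, chosen after seeing the data, the principal transcript length.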

Additional observations from a re-analysis of the deposited data

Results flagged for a closer look

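These genes, among those named in the text, had log2 differences of spheroids to adherent cells of opposite sign in HCT116 and in the libraries labelled LOVO, on the log2(FPKM + 1) scale. With 1 library per group the difference between the lines was not tested for any of them. ATP7A was at 0.297 in HCT116 and -0.062 in the libraries labelled LOVO, where its counting interval included 0 and TPM and TMM-style scaling gave a positive sign. SLC47A1 was at 0.075 and -0.735, the first from 1 and 6 reads. STEAP1 was at -0.996 and 1.211, with 0 reads in adherent cells labelled LOVO. MT1X was at -1.010 and 0.436. MT2A was at -1.747 and 1.924, the widest gap of those listed here. CCS was at 0.512 and -0.010, where TPM, TMM-style scaling and centring turned the second to 0.188, 0.119 and 0.045. LOXL1 was at -0.036 and 0.497, LOXL3 at 0.261 and -0.152, and AP1S1 at -0.149 and 0.122.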

How the results depend on the processing

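With 1 library per group, leaving out a replicate could not be done, and the spread between cultures limits every value. The labels give no replicate numbers, and the limma model with the cell line as covariate pairs the libraries by line; without it, 0 genes passed an adjusted p of 0.05 and 163 passed it unadjusted. The other scalings shifted the median of all genes most under TPM, from -0.06 to 0.10 for spheroids labelled LOVO against adherent cells and from 0.04 to 0.26 for spheroids between the lines, so the differences there are best read relative to that shift. Signs turned for ATP7A in the libraries labelled LOVO (0.12 with TPM, 0.0524 with TMM-style scaling), for SLC47A1 in limma (0.44 with a pseudocount of 0.01) and for the members' median in the libraries labelled LOVO (0.0472 with no filter), and the cause was not tested. The members' median in HCT116 was 0.0214 at a mean FPKM of at least 5, where fewer members remain.

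Members past a log2 difference of 1 numbered 1 higher in HCT116 spheroids with a pseudocount of 0.01. In spheroids labelled LOVO, 1 was higher with pseudocounts of 0.1 and 0.01 and with TPM, 2 were lower with either pseudocount, and 0 were lower at a mean FPKM of at least 5. At that filter 1 was higher and 0 lower in adherent cells labelled LOVO against HCT116, and 0 higher in spheroids. In spheroids between the lines, 1 was lower with either pseudocount, TPM, TMM-style scaling and centring. SLC31A1 was past 1 and higher in that comparison with either pseudocount (1.03) and with TPM (1.25). List genes past 1 and higher numbered 1 (pseudocount 0.01) and 2 (no filter) in HCT116 and 4 (mean FPKM of at least 5) in the libraries labelled LOVO.

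The share of all genes past 1 in HCT116 was 10.6% and 12.4% with pseudocounts of 0.1 and 0.01, 8.58% with TPM and 1.88% with no filter, and past 2 it was 2.16%, 3.17%, 1.45% and 0.18%. In the libraries labelled LOVO it was 25.5% and 27.4% with the pseudocounts and 4.84% with no filter past 1, and 7.08%, 8.79%, 5.88% (TPM) and 0.698% past 2. Between the lines it was 9.56% in adherent cells and 9.98% in spheroids with no filter. In the 8 alternatives of limma 0 genes passed an adjusted p of 0.05, and between 163 and 1906 passed it unadjusted.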
